A study of Canis lupus familiaris with 7 samples.

Results

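The development of B cells was followed through 9 genes in canine bone and osteosarcoma (OSA). *RAG1*, *DNTT*, *PAX5* and *EBF1* act early in the marrow. *CD79A*, *CD79B*, *MS4A1*, *BLK* and *TNFRSF17* are grouped here as mature B and plasma cell genes. The name of this group does not fix the stage at which each gene comes on. The genes were chosen by symbol, and all 9 were found among the 24580 genes of the expression table. RNA had been sequenced from 4 pieces of grossly non-malignant bone of dogs (N1, N3, N8 and N9, the non-tumor group) and from 3 osteosarcomas diagnosed by histopathology (T1, T3 and T10, the OSA tumor group). All tissue was surgical or post-mortem material, and no treatment, age or genotype is given for either group. The bone was homogenised whole, so that any marrow, fat or muscle in the piece contributed RNA. The study calls the non-tumor bone matched to the tumors, but the labels do not say which samples came from the same dog, and the p-values below measure only the spread between these 7 samples.

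B cells arise in the bone marrow from lymphoid progenitors. EBF1 and PAX5 are the transcription factors that set up and then hold the B cell programme, while the RAG1 and RAG2 recombinase cuts the immunoglobulin gene segments and DNTT (terminal deoxynucleotidyl transferase) adds untemplated bases at their joints. RAG1 and DNTT are switched off once a B cell carries a finished receptor, whereas PAX5 stays on until the plasma cell stage. CD79A and CD79B form the signalling part of the receptor, BLK is a kinase of the Src family that acts below it, MS4A1 is a surface protein of B cells that plasma cells lose, and TNFRSF17 is a receptor for survival factors on plasma cells. RAG1 and DNTT also serve T cell precursors in the thymus, and EBF1 is made outside the B lineage too, in stromal cells, pericytes and fat cell precursors.

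Values are FPKM, the fragments of a gene scaled to transcript length and to the mapped fragments of the library. The samples differed in ways that touch these genes. N1 resembled the tumor T1: over the 13507 genes tested, the Pearson correlation of their log2 values was 0.917, the highest of the 21 pairs of samples, against 0.670, 0.575 and 0.572 between N1 and N3, N8 and N9. This is a description across genes, which are not independent replicates. N1 is labelled non-malignant by gross appearance, and whether it held tumor tissue was not tested. The fits without N1 are therefore given for the 9 genes, for the counts of the lists and for the other genes past the threshold. Marrow markers stood in N3 and N8: the summed FPKM of 9 erythroid markers was 3093 in N3 and 4556 in N8, and between 3.67 and 201 in the other 5 samples. The 6 granulocyte markers summed to 25586 in N3 and 22090 in N8, and to between 10.3 and 874 elsewhere. How many fragments an FPKM stood for was read from the steps between low values, and it ranged from 0.543 of that of N1 in N8 to 1.43 times that of N1 in T10, while the absolute depth is unknown.

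Of the 9 genes, 8 were highest in N3 and second highest in N8, and *EBF1* was the exception. The 3 early genes besides *EBF1* were listed at 0 in all 3 tumors (0 of 9 values above 0), whereas 14 of the 15 tumor values of the 5 mature genes were above 0. In the non-tumor group 8 of 12 values of the early trio and 19 of 20 values of the mature genes were above 0. The means of 8 genes were lower in tumor than in non-tumor tissue on the log2 scale and that of *EBF1* was higher, but a single gene, *TNFRSF17*, passed the threshold of the comparison. In bulk tissue, fewer cells of a type and less RNA per cell cannot be told apart.

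**Figure D1:**
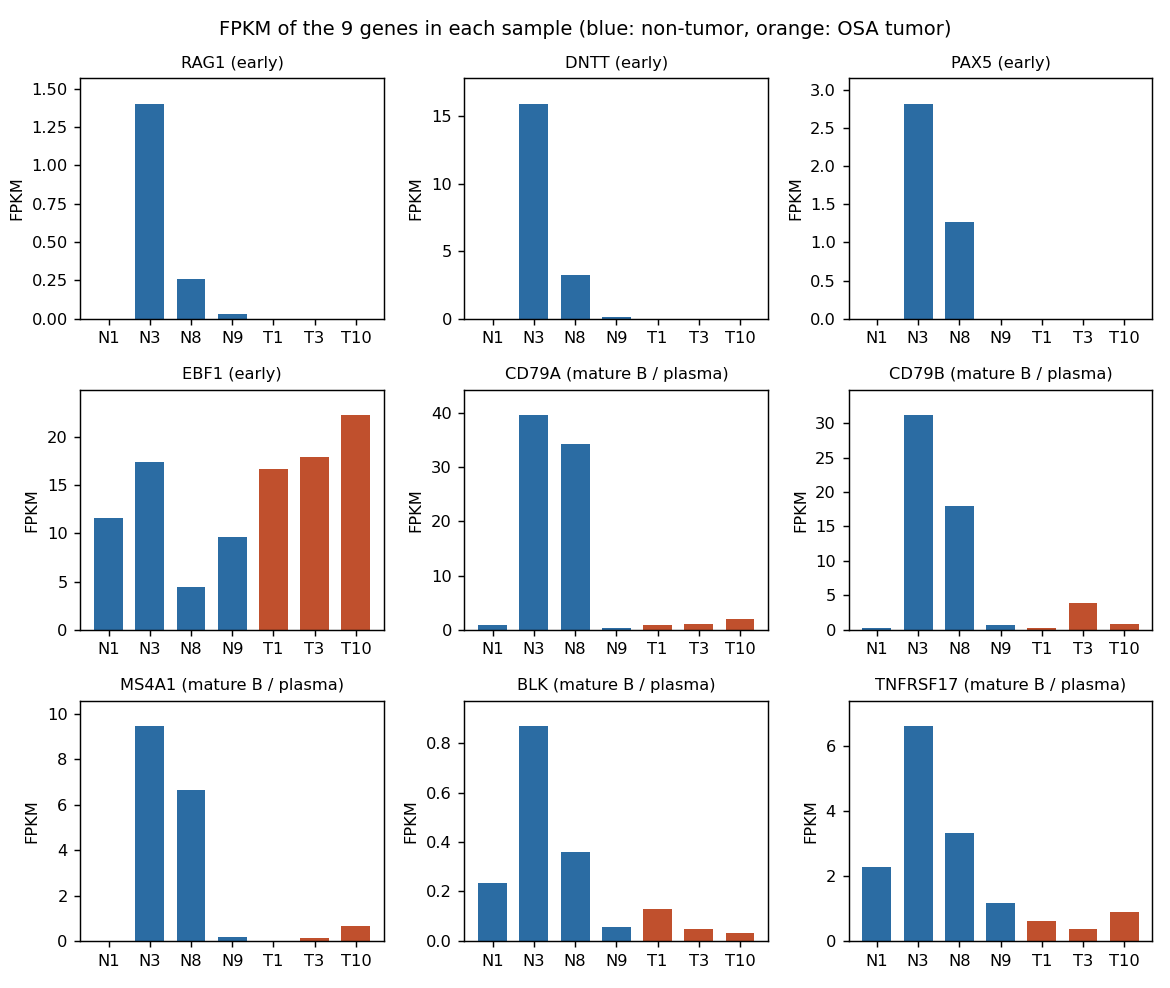
FPKM (vertical axes, each from 0) of the 9 genes in the 4 non-tumor samples (blue) and the 3 OSA tumors (orange), 1 bar per sample. N3 and N8 carry the tallest bars of every gene except *EBF1*, whose tallest bar is T10 at 22.3 FPKM.

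Tumor and non-tumor samples were compared with limma, a linear model that shares information on the spread between genes, on log2(FPKM + 1). Genes averaging 1 FPKM or more over the 7 samples were tested, 13507 in all. A gene passed with a difference of at least 1 on this scale and an unadjusted p under 0.05. Of all genes tested, 483 passed as lower in tumor (3.58%) and 443 as higher (3.28%). With Benjamini-Hochberg adjustment in limma, 0 genes had an adjusted p under 0.05, the smallest being 0.693, although 927 had an unadjusted p under 0.05. Of the 9 genes, 6 entered this test. *PAX5*, *RAG1* and *BLK* had means below 1 FPKM, and their differences come from a fit to the 18759 genes above 0 in any sample. The differences on this scale understate the change of genes with low values. An exact permutation test, two-sided and over the 35 ways to choose 3 of 7 samples, was added for the difference of the mean log2 values. Its smallest possible p is 0.0571, which cannot reach 0.05.

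*RAG1*, the catalytic subunit of the recombinase (CanFam3.1 chromosome 18, 31631533 to 31634664), was at 1.40 FPKM in N3, 0.256 in N8 and 0.0303 in N9. It was listed at 0 in N1, T1, T3 and T10. N3 thus stood above all other samples, and the 3 tumors shared the value of N1. The fit without filter gave a difference of -0.41 ± 0.29 (SE) with an unadjusted limma p of 0.200, and the exact permutation p was 0.229. It was -0.54 without N1 and -0.12 without N3, and neither passed. Its partner *RAG2*, picked out after its values were seen, was at 2.89 FPKM in N3 and 0.384 in N8 and was listed at 0 in the other 5 samples. RNA of both subunits was thus listed above 0 in N3 and N8, at low levels in N8.

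*DNTT* (chromosome 28, 9729974 to 9759917) reached 15.9 FPKM in N3, 3.26 in N8 and 0.139 in N9. It was listed at 0 in N1 and in every tumor. The groups overlapped only at 0, through N1. Its difference was -1.59 ± 0.95 (SE), with an unadjusted limma p of 0.126, an adjusted p of 0.705 and an exact permutation p of 0.229. Without N1 the difference was -2.12 with an unadjusted limma p of 0.0438, which passed the threshold. Without N3 it was -0.76 and without both N3 and N8 it was -0.09, and neither passed.

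*PAX5* (chromosome 11, 53201375 to 53390345) was above 0 only in N3, at 2.82 FPKM, and in N8, at 1.26 FPKM. The other 2 non-tumor samples and the 3 tumors were listed at 0. The difference was -0.78 ± 0.47 (SE) in the fit without filter, with an unadjusted limma p of 0.137 and an exact permutation p of 0.571. It did not pass without N1, at -1.04 with an unadjusted limma p of 0.0561, nor without N3, at -0.39 with one of 0.252.

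How low a 0 is can be bounded for *RAG1* and *DNTT*, because N9 gave them low values. If the value of N9 held at least 1 fragment, a single fragment was worth at most 0.0138 to 0.0211 FPKM of *RAG1* and 0.0631 to 0.0966 FPKM of *DNTT* in the tumors. A level of 3 fragments would then lie at or below 0.0632 FPKM for *RAG1* and 0.290 FPKM for *DNTT*, under the level of N8 for both genes. For *PAX5* the same bound of 3 fragments was 2.20 FPKM, which does not separate the tumors from N8. These bounds cover counting only, and a value of exactly 0 can also be a failed estimate of the authors' software, so that a 0 is given here only as listed.

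*EBF1* (chromosome 4, 51379233 to 51765864) followed another order than the 8 other genes. The non-tumor samples N1, N3, N8 and N9 held 11.6, 17.4, 4.46 and 9.61 FPKM, and the tumors T1, T3 and T10 held 16.7, 17.9 and 22.3 FPKM. The tumors lay in a narrow and high range, N3 fell inside it, and N8, second for every other gene, was the lowest of the 7 samples for *EBF1*. The group means were 10.8 ± 5.36 FPKM (SD, n = 4) and 19.0 ± 2.92 FPKM (SD, n = 3). The difference in tumor was 0.88 ± 0.51 (SE) on the log2 scale, with a 95% interval from -0.27 to 2.03, an unadjusted limma p of 0.117 and an adjusted p of 0.705. The exact permutation p was 0.114. With single samples left out it ranged from 0.55 (without N8) to 1.14 (without N3), was 0.96 without N1, and did not pass. With the sample number as a fixed replicate block it was 0.27 ± 0.46 (SE), with an unadjusted limma p of 0.595. That difference rests on N1, T1, N3 and T3 alone, because N8, N9 and T10 share their numbers with no other sample.

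N3 and N8 held 21.9% of the summed *EBF1* FPKM of the 7 samples, against 100% for *PAX5*, 99.3% for *DNTT* and 98.2% for *RAG1*. The 9 pericyte and fibroblast markers, which stand for stroma, summed to 304 to 846 FPKM in the non-tumor samples and to 2147, 261 and 7268 FPKM in T1, T3 and T10. Over all samples 0 of the 9 passed, against 3.58% of all genes lower and 3.28% higher, with 5 positive and 4 negative differences. Without N1, 0 were lower and 1 was higher, against 8.48% and 6.31% of all genes. That gene was *PDGFRA*, a receptor of fibroblasts, at 2.26 with an unadjusted limma p of 0.00259. The members differed among themselves: in T3, *DCN* and *LUM*, matrix proteoglycans of fibroblasts, were at 114 and 48.9 FPKM, below all non-tumor samples, while *PDGFRB*, a receptor of pericytes, was at 62.2 FPKM, above all other samples. *PDGFRA* and *PDGFRB* were picked out after their values were seen. Their part in the *EBF1* level was not tested.

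**Figure D2:**
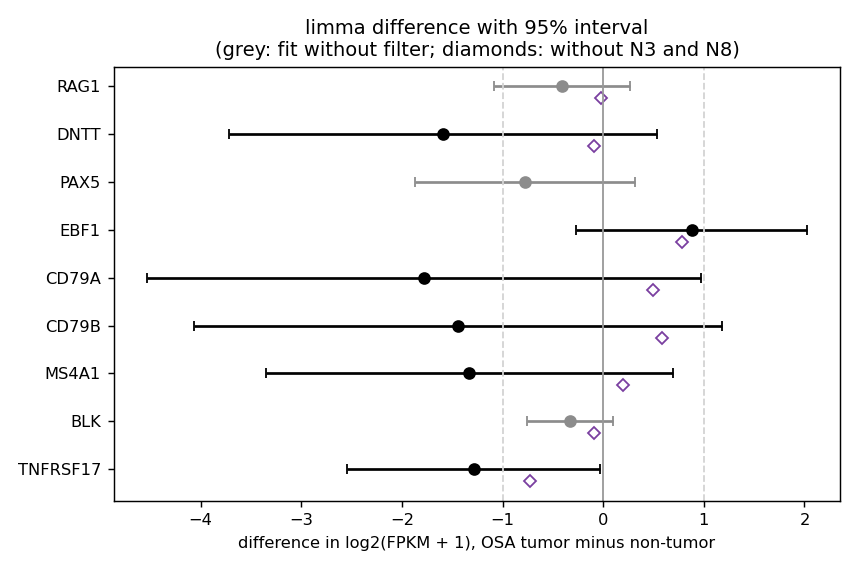
Difference in log2(FPKM + 1), OSA tumor minus non-tumor, for each gene with its 95% interval from limma (black: tested genes; grey: genes under the filter, from the fit without it). Dashed lines mark a difference of 1 in either direction and diamonds the difference without N3 and N8, which *PAX5* lacks because it is at 0 in all other samples. The interval of *TNFRSF17* alone stays below 0.

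*CD79A* (chromosome 1, 112411529 to 112415605) was at 39.5 FPKM in N3 and 34.2 in N8, and at 0.900 in N1 and 0.343 in N9. The tumors held 0.894 (T1), 1.04 (T3) and 1.98 FPKM (T10). N1 lay between T1 and T3 and N9 below all tumors, so the groups overlapped. The difference was -1.78 ± 1.22 (SE), with an unadjusted limma p of 0.178, an adjusted p of 0.735 and an exact permutation p of 0.514. Leaving out N9 brought it past the threshold at -2.63, and leaving out N1 (-2.46, unadjusted limma p 0.0739) did not. It was -0.99 without N3, -1.06 without N8 and 0.50 without both, with an unadjusted limma p of 0.289 in the last fit.

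*CD79B* (chromosome 9, 11838105 to 11845000), the partner chain, was at 31.1 FPKM in N3, 17.9 in N8, 0.724 in N9 and 0.269 in N1. In the tumors it was at 0.192 in T1, 3.84 in T3 and 0.899 in T10. T3 was the highest of the 5 samples other than N3 and N8. The difference was -1.44 ± 1.17 (SE) with an unadjusted limma p of 0.247. It was -2.19 without N1 (0.0766), -0.64 without N3, -0.89 without N8 and 0.59 without both. None of these fits passed the threshold, and the exact permutation p over all samples was 0.457.

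*MS4A1*, the surface marker that plasma cells lose (chromosome 21, 50722268 to 50733704), was at 9.45 FPKM in N3, 6.64 in N8 and 0.176 in N9, with 0 listed in N1. Among the tumors it was listed at 0 in T1 and was at 0.137 in T3 and 0.671 in T10. The difference of -1.33 ± 0.90 (SE) had an unadjusted limma p of 0.173 and an exact permutation p of 0.400, and none of the fits that left samples out passed. It was -1.88 without N1 (unadjusted limma p 0.0521), -0.75 without N3 and 0.19 without N3 and N8. *BLK* (chromosome 25, 26333798 to 26408962) stayed under 1 FPKM everywhere, from 0.0556 to 0.868 in non-tumor and from 0.0338 to 0.131 in tumor samples. Its difference was -0.33 ± 0.18 (SE) in the fit without filter, with an unadjusted limma p of 0.109 and an exact permutation p of 0.114. It was -0.38 without N1 and -0.18 without N3.

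*TNFRSF17*, the receptor of plasma cells (chromosome 6, 30840834 to 30846139), was the one gene of the 9 whose groups did not overlap. It was at 2.27, 6.62, 3.33 and 1.17 FPKM in N1, N3, N8 and N9, and at 0.618, 0.356 and 0.877 FPKM in T1, T3 and T10. All non-tumor samples thus exceeded all tumors, N1 and N9 included. The bound of 3 fragments, found as for *RAG1*, was 1.41, 1.07 and 0.919 FPKM in T1, T3 and T10 and 2.02 FPKM in N9. Each of these samples lay under its bound, so the bounds do not separate N9 from the tumors. Of all genes tested, 2.81% had every tumor sample below every non-tumor sample, and 3.04% had every tumor sample above. The group means were 3.35 ± 2.35 FPKM (SD, n = 4) and 0.617 ± 0.260 FPKM (SD, n = 3).

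The difference of *TNFRSF17* was -1.29 ± 0.56 (SE), with an interval from -2.54 to -0.03. It passed the threshold with an unadjusted limma p of 0.0459, but the adjusted p was 0.693 and the exact permutation p was 0.0571, the smallest possible. A count of 1 of 6 tested genes stands against the 3.58% of all genes that were lower. The call held without N1, where the difference was -1.37 with an unadjusted limma p of 0.0467, and without N9, where it was -1.57. It was lost without N3 (-0.97), N8 (-1.24), T1 (-1.29), T3 (-1.17) or T10 (-1.40), and without N3 and N8 together it was -0.73. It was also lost when every sample was rescaled to the same FPKM sum (-1.24) or quantile normalized (-1.22).

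The early and the mature genes were set side by side as means of their log2 values, with no test, because a score over chosen genes gives no independent one. The mature mean was 3.51 in N3 and 2.97 in N8, against 0.656 in N1 and 0.528 in N9, and 0.409, 0.800 and 0.839 in T1, T3 and T10. The mean of *RAG1*, *DNTT* and *PAX5* was 2.42 in N3, 1.20 in N8 and 0.0769 in N9, with 0 in N1 and the tumors. N1 and N9 thus lay in the range of the tumors on the mature score, and N9 alone of the 5 lower samples had an early value above 0. With *EBF1* counted among the early genes, the early mean was 0.47 lower in tumor and the mature mean 1.23 lower, and the early mean relative to the mature mean was 0.76 higher, against a pooled SD of 0.68. With *EBF1* left out that last value was 0.31 against a pooled SD of 0.48. Single samples moved these values: the early mean difference was -0.69 without N1 and -0.03 without N3, and the mature mean difference -1.66 without N1 and -0.70 without N3. The early mean relative to the mature mean was 0.97 without N1 and 0.40 without N8, or 0.05 without N8 and *EBF1*, and 0.29 with a pseudocount of 0.1. With *EBF1* left out its direction turned, to -0.54 with that pseudocount and to -0.13 without N3 and N8.

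**Figure D3:**
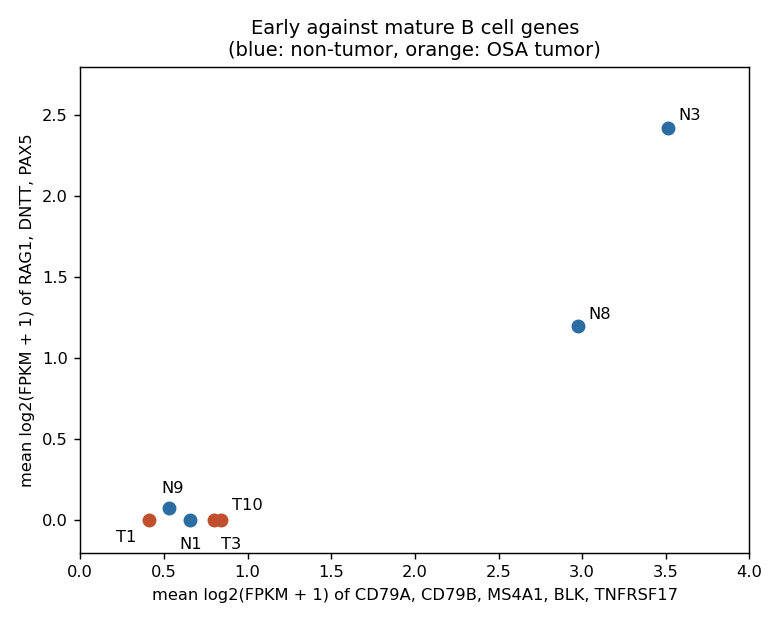
Mean log2(FPKM + 1) of *RAG1*, *DNTT* and *PAX5* (vertical) against that of the 5 mature genes (horizontal), 1 point per sample, blue for non-tumor and orange for OSA tumor. N3 and N8 lie apart at mature means of 3.51 and 2.97, and N1, N9 and the 3 tumors lie together between 0.409 and 0.839.

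The share of early genes was not constant between the samples that carried them. Summed FPKM of *RAG1*, *DNTT* and *PAX5* reached 22.9% of that of the mature genes in N3, 7.65% in N8 and 6.86% in N9, but 0% in N1 and the tumors. The N9 value rests on 0.169 FPKM of early genes against 2.47 FPKM of mature genes. *TNFRSF17* made up 61.8% of the mature sum in N1, 47.3% in N9 and 33.7% in T1, but 7.55% in N3, 5.34% in N8, 6.57% in T3 and 19.7% in T10. Its share was highest in N1, N9 and T1, where the other mature genes were lowest.

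Between N3 and N8, *RAG1*, *DNTT* and *EBF1* differed more than the 5 mature genes. The ratio of N3 to N8 was 5.47 for *RAG1*, 4.87 for *DNTT*, 3.91 for *EBF1* and 2.23 for *PAX5*. For the mature genes it was 2.42 (*BLK*), 1.98 (*TNFRSF17*), 1.74 (*CD79B*), 1.42 (*MS4A1*) and 1.15 (*CD79A*). *PAX5* lay among the mature genes by this ratio, but the bounds on fragments set no limit to the counting error of its N8 value. The median over the granulocyte markers was 1.08, over the erythroid markers 0.845 and over all genes 1.09. High ratios were not particular to early B genes, since the 8 osteoblast markers had a median of 12.4 and ranged from 4.15 to 85.5.

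The wider list of early B genes was spread in this ratio: its 12 tested genes ranged from 0.0842 (*ARPP21*) to 10.8 (*VPREB1*). Their median was 1.99, against 2.05 for the genes of receptor signalling, 1.59 for mature B and 2.30 for plasma cell genes. *RAG2*, under the filter, is not in that median, and no test compared the lists. *VPREB1* and *VPREB3*, which belong to the surrogate light chain of the immature receptor and its relatives, had ratios of 10.8 and 8.49, and *RAG2* had 7.51. T cell markers, 7 genes tested, had a median ratio of 3.45, and the summed FPKM of all 11 matched T cell markers was 82.6 in N3 and 22.2 in N8. Each ratio compares a pair of samples and has no replicate.

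**Figure D4:**
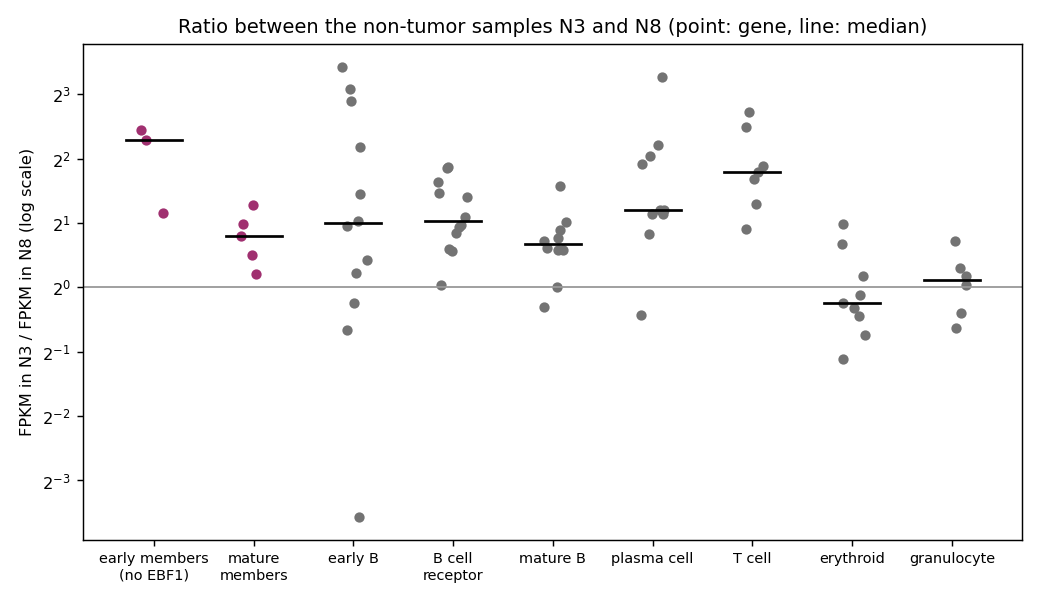
Ratio of FPKM in N3 to FPKM in N8 on a log scale, 1 point per gene with a line at the median. Purple marks the early members without *EBF1* and the mature members, and grey the tested genes of 7 other lists. *RAG1* and *DNTT* lie above 4, the early B list spreads from 0.0842 to 10.8, and the erythroid and granulocyte medians lie at 0.845 and 1.08.

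The remaining genes of the lineage were described through 4 lists (early B, receptor signalling, mature B and plasma cell) of 60 symbols in all, of which 51 were matched and 44 tested. Of these 44, 36 (81.8%) had a negative difference, against 51.4% of all genes tested, and their median difference was -0.97 against -0.02 over all genes. Past the threshold, 4 were lower (9.09%, against 3.58% of all genes) and 0 were higher (against 3.28%). Without N1, 10 were lower (22.7%, against 8.48% of all genes) and 2 were higher (4.55%, against 6.31%).

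Of 12 early B genes tested, 2 were lower and 0 higher without N1, against 8.48% and 6.31% of all genes. Over all samples 1 was lower and 0 were higher, with a median of -0.95. The one that passed was *ARPP21*, a cyclic AMP regulated phosphoprotein of neurons and lymphoid progenitors, which fell by 3.39 ± 1.25 (SE) with an unadjusted limma p of 0.0230, and whose difference without N1 was -3.96. It was at 170 FPKM in N9 and 23.0 in N8, against 1.93 in N3, whereas 8 of the 14 matched genes of the list were highest in N3. A microRNA gene, *cfa-mir-128-2*, lies within its interval. *VPREB1* was at 81.3 FPKM in N3, 7.54 in N8, 0.654 in N1 and 0.390 in N9, and was listed at 0 in all tumors. Its difference of -2.66 did not pass (unadjusted limma p 0.0627), whereas the -3.31 without N1 did (0.0289). *VPREB3* was at 34.2 FPKM in N3 and 4.03 in N8 and was listed at 0 in the other 5 samples, with a difference of -1.87. *LEF1*, a transcription factor of the Wnt pathway used by B cell precursors and by many other cells, had the largest of 4 positive differences, 1.83, with 68.9 FPKM in T3 (unadjusted limma p 0.111).

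Below the B cell receptor, 0 of 12 genes passed in either direction, with 11 negative differences and a median of -0.88. Without N1, 1 was lower and 0 were higher, against 8.48% and 6.31% of all genes. All 12 were highest in N3. *CD22*, an inhibitory coreceptor, was at 6.37 FPKM in N3 and 2.42 in N8 and between 0.0280 and 1.08 FPKM elsewhere. Its difference was -1.28 (unadjusted limma p 0.0734), and -1.61 without N1 (0.0255), where it passed. The differences of *VAV1* (-1.12), *PIK3CD* (-1.09) and *CD72* (-1.07) did not pass. *VAV1* and *PIK3CD*, signalling proteins that other blood cells use as well, kept 1.17 to 4.98 FPKM in the tumors.

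Among 10 tested genes of mature B cells, 1 was lower and 0 were higher, with a median of -0.87. Without N1, 2 were lower and 0 higher, against 8.48% and 6.31% of all genes. *TNFRSF13B*, a receptor for the same survival factors as TNFRSF17, fell by 1.64 ± 0.59 (SE), with an unadjusted limma p of 0.0216, and the difference without N1 was -1.99. It was at 0.951, 5.18, 5.14 and 2.82 FPKM in N1, N3, N8 and N9, and at 1.05, 0.0164 and 0.105 FPKM in T1, T3 and T10. T1 lay just above N1, so its groups overlapped. *CD37* (-1.45), *STAP1* (-1.29) and *FCRLA* (-1.26) did not pass over all samples, and *STAP1* passed without N1.

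Plasma cell genes had the lowest median of the 4 B cell lists, -1.40, with 2 of 10 lower and 0 higher. *IGJ*, the chain that joins secreted antibodies, was at 35.8, 3261, 790 and 85.6 FPKM in N1, N3, N8 and N9, and at 7.72, 53.1 and 11.4 FPKM in T1, T3 and T10. It fell by 4.06 ± 1.43 (SE), with an unadjusted limma p of 0.0188 and an adjusted p of 0.693, while T3 exceeded N1. Without N1 the difference was -5.07. *DERL3*, which serves protein disposal in the endoplasmic reticulum and whose interval overlaps that of *SMARCB1*, fell by 2.08 (unadjusted limma p 0.0385) with groups that did not overlap, and its difference without N1 was -2.50.

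*MZB1* and *POU2AF1*, a chaperone of antibody assembly and a B cell coactivator, had differences of -2.53 and -2.41 that did not pass. Without N1 both passed, and of the 10 tested genes of the list 5 were lower and 2 higher, against 8.48% and 6.31% of all genes. *SDC1*, a proteoglycan that plasma cells share with epithelium and bone-forming cells, ran the other way. It was at 62.8 FPKM in N1 and 115 in T1, and at 12.2 or less in N3, N8 and N9, with a difference of 2.17 (unadjusted limma p 0.0518) that passed at 3.01 without N1.

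**Figure D5:**
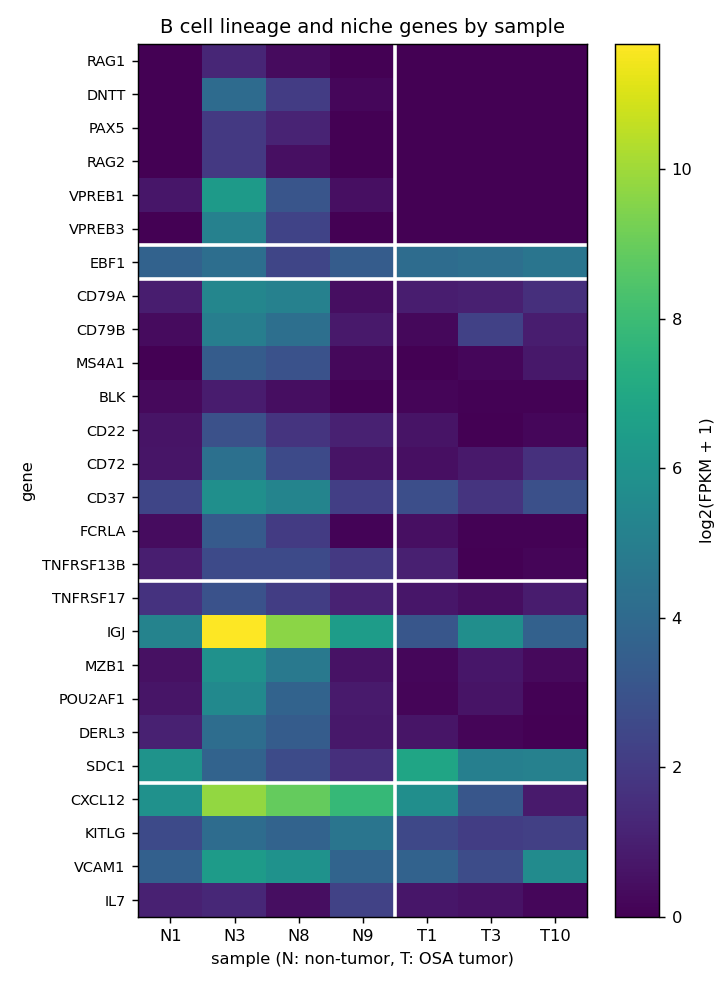
Log2(FPKM + 1) (colour scale) of early genes, *EBF1*, B cell, plasma cell and niche genes (rows, separated by white lines) in each of the 4 non-tumor and 3 OSA tumor samples (columns). The early rows are at 0 in T1, T3 and T10, *EBF1* is present in every sample, and *IGJ* in N3 is the highest value at 3261 FPKM.

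Stromal signals feed B cell precursors in the marrow. Of 6 such ligands and adhesion genes, 2 were lower and 0 were higher, against 3.58% and 3.28% of all genes, with a median of -0.87. Without N1 the same counts stood against 8.48% and 6.31%, with differences of -5.61 for *CXCL12* and -1.83 for *KITLG*. *CXCL12*, the chemokine that holds progenitors in the marrow, was at 59.1, 884, 488 and 225 FPKM in N1, N3, N8 and N9, and at 53.5, 7.71 and 0.781 FPKM in T1, T3 and T10. It fell by 4.87 ± 1.20 (SE), with an unadjusted limma p of 0.00269, an adjusted p of 0.693 and groups that did not overlap, though N1 lay close to T1. *KITLG*, the stem cell factor, fell by 1.45 (unadjusted limma p 0.0242), from 5.15 to 22.1 FPKM in non-tumor to 3.40 to 4.73 FPKM in tumor samples. *IL7*, the growth factor of B cell precursors in rodents, had a difference of -0.81 and *VCAM1*, an adhesion molecule, one of -0.94, and neither passed.

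Markers of other marrow cells were also high in N3 and N8. Of 9 erythroid markers 7 were lower in tumor and of 6 granulocyte markers 6 were lower, with medians of -3.70 and -5.77, and without N1 all 9 and all 6 were lower. Of all genes tested, 3.58% were lower over all samples and 8.48% without N1. *AHSP*, a chaperone of hemoglobin, was at 1915 FPKM in N3 and 3202 in N8 and from 0.560 to 48.0 FPKM in the tumors. *S100A12*, a neutrophil protein, was at 16020 and 12966 FPKM in N3 and N8 and from 9.57 to 525 FPKM in the tumors. Of 5 tested adipocyte markers, of which 0 were highest in N3, 4 were lower with and without N1, and the 6 matched, 1 of them untested, had a sum of 52.1 to 288 FPKM in non-tumor and 12.4 to 46.6 FPKM in tumor samples. Of the T cell markers 0 of 7 tested passed with or without N1, and all 11 matched had a sum of 2.64 to 82.6 FPKM in non-tumor and 4.03 to 18.9 FPKM in tumor samples. Over all samples 0 of 8 osteoblast and 0 of 7 cell cycle markers passed, and without N1 the counts were 3 higher and 0, with the osteoblast median moving from 1.48 to 2.07. Of all genes 3.28% were higher over all samples and 6.31% without N1. The 2 lists had summed FPKM of 115 to 1509 and 23.8 to 324 in non-tumor and 940 to 3592 and 148 to 404 in tumor samples. The part of these cells in the differences of the B cell genes was not tested.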

How the data were processed

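FPKM per gene and sample were used as deposited. Per the labels, libraries were Illumina TruSeq stranded and paired-end. The authors used Trim Galore for trimming, Tophat2 for alignment to CanFam3.1 and Cufflinks/Cuffdiff for the FPKM. Further tool versions and the normalization between libraries are not given in the sources used here. A second deposited table holds the authors' group FPKM, log2 fold changes, test statistics (a score), p-values and q-values from Cuffdiff. Only its gene intervals were used, with 1 added to each start. All 7 per-sample columns were analysed and 0 were left unused. Sequences and exon positions were not analysed here.

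Values were analysed as log2(FPKM + 1) with limma 3.58.1 (R 4.3.3, empirical Bayes with a mean-variance trend), for genes averaging 1 FPKM or more. The fit was tested on simulated data. Exact permutation tests used scipy 1.17.1 and numpy 2.4.6 (Python 3.11.15), with figures by matplotlib 3.10.9. The fragments behind an FPKM were read relative to N1 from the steps of low values, and no absolute depth is known. The 9 genes, the pathway lists and the marker lists were chosen with earlier results of these data known, so they are not independent evidence. Named were the 9 genes, from each pathway list the genes past the threshold and the 4 tested genes with the largest difference, from marker lists genes among the 3 of highest mean FPKM, and for each gene tested the 3 genes with the closest profile. Alternatives changed the pseudocount to 0.1, the filter (none, or at least 1 FPKM in at least 3 samples), the scaling (same sum, median ratio, quantile), the trend, sample weights (arrayWeights), a block for the sample number, and each sample left out in turn. Fits without N3 and N8 and without N1 and T1 were added after seeing the data. Genes named outside this rule are said to be so. Some genes of the lists are counted but not reported here by name.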

Additional observations from a re-analysis of the deposited data

Results flagged for a closer look

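Among the non-tumor samples, *PDGFRB*, a receptor of pericytes, had 1 sample far from the others: N8 was at 10.995 FPKM, and the other 3 samples lay between 18.2 and 18.4 FPKM. On the log2 scale the gap from N8 to the nearest sample made up 0.970 of the range of the group. It was the 1 flag counted among 45 sets of values, which did not take in every gene of the lists. Other list genes, picked out after their values were seen, also had 1 non-tumor sample apart. *CD40* was at 5.33 FPKM in N3 and 2.29 to 2.63 FPKM in the other non-tumor samples. *CSPG4* was at 10.3 FPKM in N1 and 0.119 to 0.438 FPKM in the others. Chance flags about 1 in 20 such groups, but the count of 1 in 45 cannot be set against this, because the sets were a selection.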

How the results depend on the processing

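The count of all genes past the threshold was 926. It was 1857 with sample weights, 319 to 1997 with a sample left out, 208 without N3 and N8 and 1894 without N1 and T1. Of the 9 genes, 1 passed. This became 0 when FPKM were rescaled to the same sum, quantile normalized, or taken without N3 and N8 or without N1 and T1, 3 with sample weights (*CD79A* -2.72, *DNTT* -2.09 and *TNFRSF17*), and 0 to 2 with a sample left out. *TNFRSF17* kept its direction in all 19 alternatives and lost its call in 9. It was -1.38 without N1 and T1. Without N3 and N8 the differences of *CD79A* (0.50), *CD79B* (0.59) and *MS4A1* (0.19) reversed, the mature mean difference moved to 0.091, the early mean difference was 0.17 and the early mean relative to the mature mean was 0.075. A pseudocount of 0.1 moved the early mean difference to -1.54 and turned that relative value without *EBF1* from 0.31 to -0.54. The same pseudocount gave differences of -1.53 (*RAG1*), -2.16 (*PAX5*), -3.41 (*DNTT*), -2.13 (*MS4A1*), -1.23 (*BLK*) and -2.08 (*TNFRSF17*). *EBF1* had a positive difference in all 19 alternatives, from 0.27 with the fixed replicate block to 1.14 without N3, and passed in 0. Rescaling to the same sum moved the median difference of all genes from -0.02 to 0.12 and gave 493 lower and 271 higher genes, against 483 and 443.

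N1 and T1, and N3 and T3, share a number, and the study calls the non-tumor tissue matched, but no source says that a number marks a dog, so the groups were compared unpaired. With the number as a fixed replicate block, 231 genes passed, and with a random replicate block 1062 (correlation within numbers 0.456). The differences with the fixed block rest on N1, T1, N3 and T3 alone, because the numbers of N8, N9 and T10 occur once. With either block 1 of the 9 genes passed. What changed the calls was not tested, apart from fewer samples in the fits that left samples out. With 4 and 3 samples and absolute depth unknown, levels under about 1 FPKM carry little weight.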

Other observations

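Profiles close to those of the tested genes were sought by the root mean square distance of centred log2(FPKM + 1) over the 7 samples. This is a description with no test. A neighbour shares the highs and lows of its gene because it was picked for them. *MS4A1* had the closest neighbours, *SUCNR1* (0.14), *CLEC2D* (0.19) and *MPP2* (0.19), all high in N3 and N8. *SUCNR1*, a receptor for succinate, was at 12.7 and 8.21 FPKM in N3 and N8 and at most 0.855 FPKM elsewhere. *CD79A* was nearest to *SNORA49* (0.32), *FPR1* (0.33) and *C19orf38* (0.34), and *FPR1* is a receptor of neutrophils. *CD79B* was nearest to *MS4A2* (0.39), *SPIC* (0.40) and *IRF8* (0.40). *SPIC* and *IRF8* are transcription factors of macrophages and B cells, and both were at 5.9 FPKM in T3, the tumor with the highest *CD79B*.

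For *DNTT* the nearest were *BCL2L14* (0.24), *GFI1* (0.33) and *SULT1B1* (0.33). *GFI1*, a repressor used by granulocyte and lymphoid precursors, was at 17.4 FPKM in N3 and 8.14 in N8. The neighbours of *TNFRSF17* were *STAB2* (0.22), *FBXO9* (0.23) and *SLCO2B1* (0.26), of which *STAB2* is a scavenger receptor of sinusoidal endothelium. It was at 3.73 FPKM in N3 and at 0.346 FPKM or less in the tumors. Those of *EBF1* were *ATP8B1* (0.20), *ZNF182* (0.21) and *SPESP1* (0.22), and each of them was lowest in N8 and highest in T10, as *EBF1* was.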
